A study of Arabidopsis thaliana with 20 samples.

Results

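Chromatin immunoprecipitation with sequencing (ChIP-seq) of the histone variant H2A.Z in *h3.3kd* and WT seedlings of *Arabidopsis thaliana* makes up 4 of the 20 libraries of the series, 2 from *h3.3kd* and 2 from WT. They were chosen by their antibody label alone, and no measured value entered the choice. The *h3.3kd* plants carried the T-DNA insertion alleles *htr4-2* and *htr8-2* in the H3.3 genes *HTR4* and *HTR8*, and an artificial microRNA against *HTR5*, the remaining H3.3 gene, expressed from the *HTR5* promoter. WT was Columbia. All plants were 10-day-old seedlings grown on MS medium with glucose in long days, and the H2A.Z antibody was made in the laboratory of the study. More than 1 *h3.3kd* line was described in the study, and which one gave the ChIP material is not named in the labels or methods. The 4 libraries of total H3 from the same genotypes served as a second reference. Whole seedlings were used, so fewer cells with H2A.Z at a place and less H2A.Z per cell cannot be told apart.

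H2A.Z replaces H2A in nucleosomes and is put in place by the SWR1 remodelling complex. In plants it is typically concentrated in the first nucleosomes after the transcription start site (TSS), is scarce over the bodies of constitutively expressed genes and in methylated DNA, and lies over the whole body of many responsive genes. Work in plants has linked it to the response to temperature and to other stimuli. The balance between the start and the body of a gene is therefore a usual description of an H2A.Z profile.

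The genotype labels were checked first at the H3.3 genes. In *HTR4*, no read of the 2 H2A.Z and 2 H3 libraries of *h3.3kd* began within a stretch of 46 bp (chr4:18555919-18555964), against 9 and 57 reads in the WT H2A.Z libraries and 5 and 4 reads in the WT H3 libraries. In *HTR8*, a stretch of 96 bp (chr5:3472946-3473041) held no read start in the 4 *h3.3kd* libraries, against 23 and 61 reads in the WT H2A.Z libraries and 17 and 15 in the WT H3 libraries. Both stretches were found by scanning the 2 genes for the longest run without a read start in *h3.3kd*, so the lack of reads there was fixed by the choice. In the pooled WT libraries the longest such run was 7 bp in *HTR4* and 9 bp in *HTR8*. The 2 artificial microRNAs described in the study are shown with the best-matching site in *HTR5*, because they define the genotype. Capitals mark the bases that are not Watson-Crick complementary, so G-U pairs are marked too. Sites are on the sense strand of *HTR5* (minus strand of TAIR10.1), and all sequences run 5′ to 3′.

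amiR-HTR5-I: tatctatttagaaaaccGccc

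site of amiR-HTR5-I: gggTggttttctaaatagata

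amiR-HTR5-II: TtccagtagacttacgCgctg

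site of amiR-HTR5-II: cagcTcgtaagtctactggaG

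The first site lies in the 3′ UTR (chr4:18557484-18557504) and the second in the coding sequence (chr4:18558197-18558217). Counted from the 5′ end of the microRNA and read on its strand, the first differs by G18A and the second by T1C and C17A. Over the 1 kb upstream of *HTR5*, H2A.Z density was 20.2 and 17.8 reads per kb per 1000000 nuclear reads in *h3.3kd* against 10.97 and 11.9 in WT. H3 density there was 14.4 and 17.0 in *h3.3kd* against 7.84 and 10.5 in WT. The transgene carries the *HTR5* promoter, and its part in these values was not tested.

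The H2A.Z libraries held 26.1 and 68.1 M (1000000) nuclear reads in *h3.3kd* and 19.0 and 49.8 M in WT, so *h3.3kd* was the deeper library in both replicates. Replicate 1 lists kept 1 read per position and strand. Replicate 2 lists gave no strand and held at most 2 reads per position, which 1 read per strand would also give. Positions with 2 reads made up 27.0% of the occupied positions in *h3.3kd* and 19.3% in WT. In the less deep replicate 1 they made up 8.4% and 6.7%. The processing of replicates 1 and 2 therefore differed, and the difference between *h3.3kd* and WT is given for each replicate number as well as for the mean. Since reads removed as duplicates are lost mainly where density is high, and more so in a deeper library, values corrected for that loss stand beside the results they alter. Among the H3 libraries, replicate 2 of WT stood apart, with 10.5% of its nuclear reads in pericentromeric 1-kb bins against 15.4 to 18.6% in the other 3. In all 4 H2A.Z libraries the balance of first nucleosome to gene body exceeded the balance in H3 of matching genotype and number, by 0.46 and 0.38 (log2) in *h3.3kd* and by 0.63 and 0.17 in WT. Nothing in the labels says that replicates came from separate cultures, so p-values measure the spread between these samples only.

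H2A.Z was lower over the first nucleosome and slightly higher over the body and the end of genes in *h3.3kd* than in WT, in both replicates. Density (reads per kb per 1000000 nuclear reads) was averaged over 23067 protein-coding genes no shorter than 1 kb. Over +1 to +250 bp from the TSS it was 12.4 and 12.3 in *h3.3kd* against 13.3 and 12.9 in WT. The difference was −0.10 (log2) in replicate 1 and −0.067 in replicate 2, and the genotypes did not overlap. Over the gene body, from 500 bp after the TSS to the transcription end site (TES), density was 11.16 and 11.07 in *h3.3kd* against 10.91 and 11.02 in WT, which is a difference of 0.033 and 0.0059 (log2). Over the last 500 bp of genes the log2 density was 3.35 and 3.40 in *h3.3kd* against 3.28 and 3.35 in WT, a difference of 0.074 and 0.048. The *h3.3kd* value of replicate 1 exceeded the WT value of replicate 2 by a very small margin there.

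The balance, which is the log2 ratio of first-nucleosome to gene-body density inside a library and does not depend on its depth scaling, was 0.16 and 0.15 in *h3.3kd* against 0.29 and 0.23 in WT. Both *h3.3kd* values lay below both WT values, with differences of −0.14 and −0.073. The mean ± SD was 0.154 ± 0.0023 in *h3.3kd* and 0.258 ± 0.047 in WT (n = 2 each). For the first nucleosome, gene body, gene end and balance, a two-sided exact permutation test gave p = 0.33, the smallest p that 2 against 2 libraries allow. Corrected for reads lost to duplicate removal, the balance differed by −0.14 and −0.045, and the first nucleosome by −0.099 and −0.013. In the 5870 genes with no other annotated gene within 500 bp of either end, the gene body and the gene end were lower in *h3.3kd* (−0.065 and −0.045 for the body, −0.061 and −0.015 for the end), opposite to all genes, while the balance remained lower (−0.063 and −0.023).

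**Figure D1:**
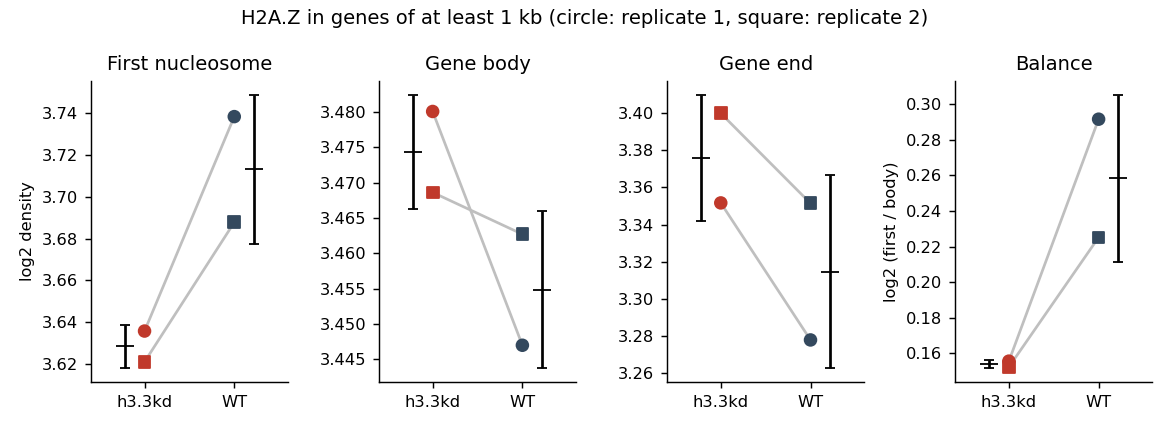
H2A.Z per library over the first nucleosome (+1 to +250 bp), the gene body (500 bp after the TSS to the TES), the gene end (last 500 bp) and their balance in genes of at least 1 kb, as log2 density or log2 ratio, with *h3.3kd* left of WT. Points are libraries, grey lines join the same replicate number, bars are mean ± SD (n = 2 each), and each panel has its own axis, which does not start at 0. The balance was 0.16 and 0.15 in *h3.3kd* against 0.29 and 0.23 in WT.

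In absolute distance the H2A.Z maximum lay at the same place in both genotypes, and in reads as listed it was lower in *h3.3kd*. Over 7014 genes of at least 3 kb it lay 362.5 bp after the TSS in both replicate 1 libraries and 287.5 bp after it in both replicate 2 libraries, beyond the window of +1 to +250 bp. Density at the maximum was 15.4 and 16.02 in *h3.3kd* against 17.5 and 17.0 in WT. Between 2 and 3 kb after the TSS it was 8.57 and 8.78 in *h3.3kd* against 7.63 and 8.18 in WT. The maximum was thus 1.80 and 1.82 times the level at 2 to 3 kb in *h3.3kd*, against 2.30 and 2.08 times in WT. With correction for duplicate removal the maximum was 16.1 and 19.8 in *h3.3kd* against 18.19 and 19.5 in WT, so that it was no longer lower in replicate 2, and the ratios were 1.90 and 2.43 in *h3.3kd* against 2.41 and 2.52 in WT. In a window around the maximum, 200 to 450 bp after the TSS, the log2 difference was −0.16 and −0.097, while H3 in the same window differed by 0.066 and 0.088. This window was added after the profiles had been seen. In the 250 bp upstream of the TSS, H2A.Z differed by 0.038 and −0.063, so the replicates went opposite ways. In replicate 1, where strand is listed, the distance between strands gave a fragment length of 305 bp in *h3.3kd* against 240 bp in WT. The part of this difference in the height of the maximum was not tested.

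**Figure D2:**
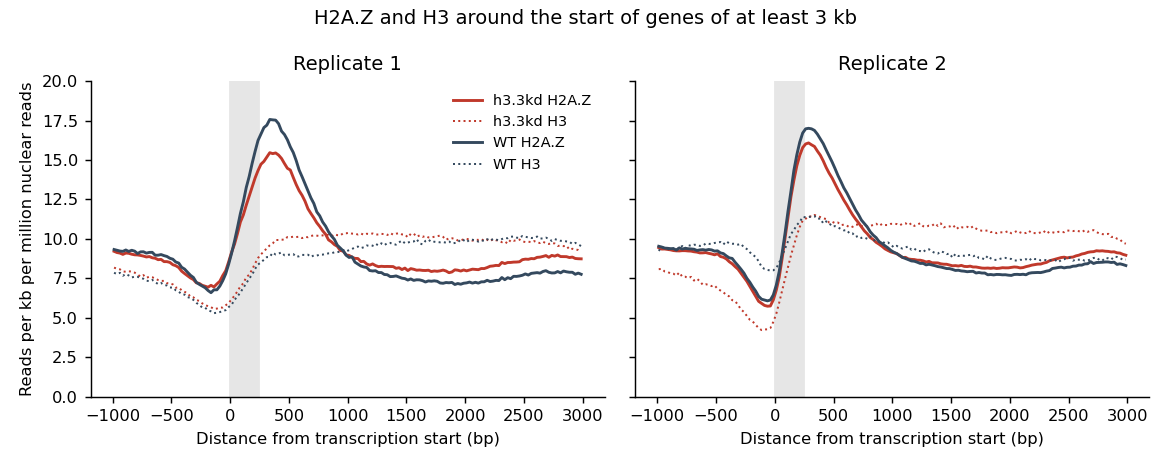
H2A.Z (solid) and H3 (dotted) density around the TSS of genes of at least 3 kb in *h3.3kd* (red) and WT (dark blue), replicate 1 left and replicate 2 right, as reads per kb per 1000000 nuclear reads in 25-bp steps. The grey band marks +1 to +250 bp. The H2A.Z maximum was 15.4 and 16.02 in *h3.3kd* against 17.5 and 17.0 in WT, the curves crossed near 1 kb, and the lowest H3 density just upstream of the TSS was 4.25 to 5.60 in 3 libraries and 8.02 in WT replicate 2.

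Set against H3 of the same genotype and replicate number, the replicates went opposite ways. The balance of H2A.Z over H3 was 0.46 and 0.38 in *h3.3kd* against 0.63 and 0.17 in WT, with differences of −0.17 in replicate 1 and 0.21 in replicate 2 (p = 1, two-sided exact permutation test). The gene body over H3 was 0.19 and 0.080 in *h3.3kd* against 0.19 and 0.22 in WT, with differences of 0.0042 and −0.14 (p = 0.667, two-sided exact permutation test). The balance of H3 itself was −0.30 and −0.23 in *h3.3kd* against −0.34 and 0.054 in WT, so H3 in WT replicate 2 set the sign of the second comparison. Where replicate 1 of H3 served for both H2A.Z replicates, the balance over H3 differed by −0.17 and −0.10. No direction relative to H3 is therefore given for all genes.

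The difference in balance was larger in longer genes, and mainly through the gene body. In the 3947 genes of 1 to 1.5 kb the balance was −0.027 and 0.021 in *h3.3kd* against 0.046 and 0.047 in WT, a difference of −0.073 and −0.026. In the 1639 genes over 5 kb it was 0.66 and 0.61 in *h3.3kd* against 0.96 and 0.78 in WT, a difference of −0.30 and −0.17. The classes between them lay in order, with −0.11 and −0.052 at 1.5 to 2 kb, −0.14 and −0.077 at 2 to 3 kb, and −0.19 and −0.12 at 3 to 5 kb. First-nucleosome density was lower in *h3.3kd* by a similar amount in each length class, −0.096 to −0.11 in replicate 1 and −0.056 to −0.072 in replicate 2. Gene-body density was lower in *h3.3kd* in genes of 1 to 1.5 kb (−0.033 and −0.044) and higher in genes over 5 kb (0.19 and 0.12). The last 500 bp followed the body, with −0.010 and −0.020 in the shortest class and 0.20 and 0.15 in the longest.

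Longer genes also had lower H2A.Z over the body in every library. The log2 body density in genes over 5 kb was 2.93 and 2.97 in *h3.3kd* against 2.74 and 2.85 in WT, while in genes of 1 to 1.5 kb it was 3.77 and 3.72 in *h3.3kd* against 3.80 and 3.76 in WT. Relative to H3 the trend went opposite ways, with −0.29 in replicate 1 and 0.21 in replicate 2. The trend was not tested. For H2A.Z alone, the longest class minus the shortest was −0.23 in replicate 1 and −0.15 in replicate 2, and with correction for duplicate removal −0.21 and −0.037. Hence most of the trend of replicate 2 was not seen after that correction.

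**Figure D3:**
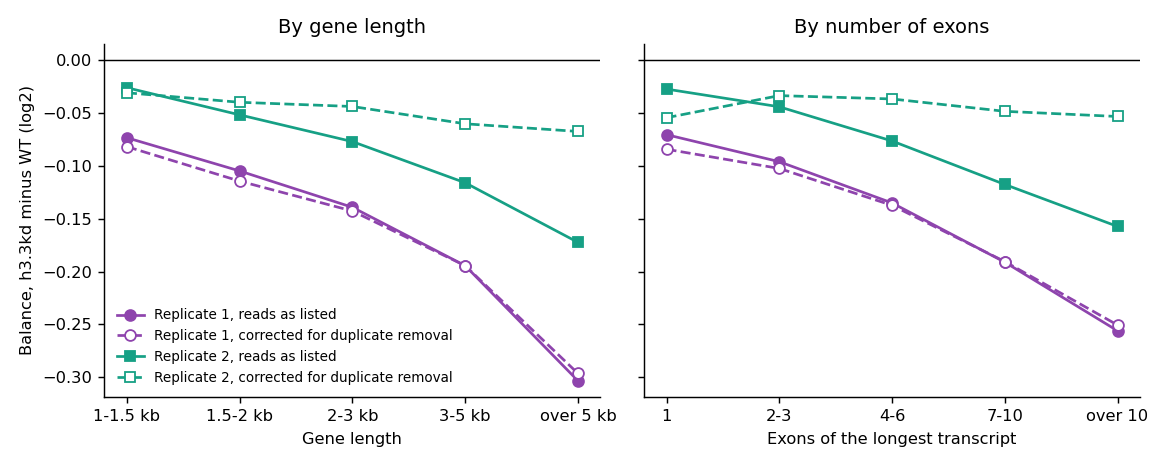
Difference in H2A.Z balance (log2), *h3.3kd* minus WT, by gene length (left) and by number of exons (right), for replicate 1 (circles) and replicate 2 (squares). Filled points are reads as listed and open points are corrected for duplicate removal. In genes over 5 kb the difference was −0.30 and −0.17 as listed, and −0.30 and −0.068 corrected.

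The number of exons gave a similar course. The 3144 genes with 1 exon had a balance of −0.14 and −0.14 in *h3.3kd* against −0.067 and −0.12 in WT, a difference of −0.071 and −0.027. The 3378 genes with over 10 exons had a balance of 0.59 and 0.57 in *h3.3kd* against 0.85 and 0.72 in WT, a difference of −0.26 and −0.16. Genes with 2 to 3, 4 to 6 and 7 to 10 exons lay in order between them in both replicates. Gene-body density in genes with over 10 exons was higher in *h3.3kd* by 0.13 and 0.091, and in genes with 1 exon it differed by 0.017 and −0.045. Over 10 exons minus 1 exon, the difference was −0.19 and −0.13 as listed and −0.17 and 0.0012 with correction for duplicate removal.

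Exon number and length were also taken apart. Within the 7430 genes of 2 to 3 kb, the difference in balance was −0.10 and −0.060 in the 717 genes with 1 exon and −0.24 and −0.14 in the 282 genes with over 10 exons. Within genes of 4 to 6 exons, it was −0.11 and −0.074 at 1 to 1.5 kb (685 genes) and −0.18 and −0.093 over 5 kb (96 genes). Both gradients were thus seen between the end classes in reads as listed when the other property was held in 1 class. In replicate 2 the length gradient was small, with −0.074 at 1 to 1.5 kb, −0.075 at 1.5 to 2 kb and −0.073 at 2 to 3 kb. After correction for duplicate removal, the linear balance in genes of 4 to 6 exons differed by −7.5% and −3.0% at 1 to 1.5 kb. Over 5 kb it differed by −11.5% and −3.9%, so little of the length gradient was left in replicate 2. With correction for duplicate removal, the genes of 2 to 3 kb gave −0.11 and −0.062 with 1 exon and −0.25 and −0.050 with over 10 exons, so that the exon gradient was seen in replicate 1 but not in replicate 2.

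H2A.Z differed with its own level. Genes were split into 5 classes of equal size by the mean body density over all 4 libraries. In the lowest class, body density was higher in *h3.3kd* by 0.33 and 0.15, and in the highest class the difference was −0.078 and −0.078. The classes between them were in order in both replicates. The same split of 1-kb bins over the genome gave 0.25 and 0.12 in the lowest class and −0.10 and −0.076 in the highest. With correction for duplicate removal the bins gave 0.23 and −0.011 in the lowest class and −0.084 and 0.015 in the highest, so replicate 2 did not show this order. With the same correction, the lowest class of gene bodies differed by 0.33 and 0.059 and the highest by −0.051 and 0.049. Relative to H3, and on the linear scale, the lowest class of gene bodies differed by 23.5% and 2.2% and the highest by −5.5% and −25.9%. The part of this dependence on level in the differences by length, exon number and region was not tested.

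H2A.Z was lower in intergenic bins of the chromosome arms and higher in pericentromeric bins in *h3.3kd* than in WT in both replicates. In reads as listed, neither difference exceeded the spread between replicates. The 15488 arm bins of 1 kb without any annotated gene had a log2 density of 2.50 and 2.64 in *h3.3kd* against 2.64 and 2.67 in WT. The differences were −0.14 and −0.031, the genotypes overlapped, and p was 0.667 (two-sided exact permutation test). Bins of the 5 pericentromeres, regions poor in protein-coding genes and rich in transposons, had a log2 density of 2.06 and 1.89 in *h3.3kd* against 1.95 and 1.79 in WT. The differences were 0.12 and 0.095, the genotypes overlapped because replicate 1 was higher than replicate 2 in both, and p was 0.667 (two-sided exact permutation test). Corrected for duplicate removal, the pericentromeres differed by 0.097 and 0.0037 and the arm intergenic bins by −0.15 and −0.10. The arm intergenic density was then 5.43 and 5.40 in *h3.3kd* against 6.05 and 5.80 in WT, without overlap. Relative to H3, pericentromeric bins differed by 0.28 and −0.46, again with opposite signs. The ratio to H3 in arm intergenic bins was 0.90 and 1.23 in *h3.3kd* against 1.05 and 0.74 in WT, also in opposite directions.

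Within the pericentromeres, the 9340 bins that overlap a pseudogene or transposon gene had a log2 density of 1.96 and 1.74 in *h3.3kd* against 1.69 and 1.54 in WT, a difference of 0.28 and 0.20. The genotypes did not overlap there in reads as listed. With correction for duplicate removal the difference was 0.26 and 0.082. The density was then 3.70 and 2.66 in *h3.3kd* against 3.09 and 2.51 in WT, so the genotypes overlapped. H3 in the same bins differed by −0.24 and 0.96. Intergenic pericentromeric bins (6165) differed by 0.074 and 0.061, or by 0.055 and −0.064 with that correction, and pericentromeric bins inside protein-coding genes (2452) by −0.043 and 0.0049. In reads as listed, all 5 pericentromeres were higher in *h3.3kd* in both replicates. Chromosome 4 differed by 0.18 and 0.14 and chromosome 5 by 0.16 and 0.12, and the other 3 by 0.084 to 0.11 in replicate 1 and 0.073 to 0.085 in replicate 2. Intergenic pericentromeric bins had the lowest H2A.Z of the 8 bin classes in every library, and bins with a pseudogene or transposon gene came next. The 879 protein-coding genes of the pericentromeres had a balance of 0.20 and 0.24 in *h3.3kd* against 0.33 and 0.29 in WT, close in difference (−0.13 and −0.050) to the 22188 arm genes (−0.14 and −0.073).

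**Figure D4:**
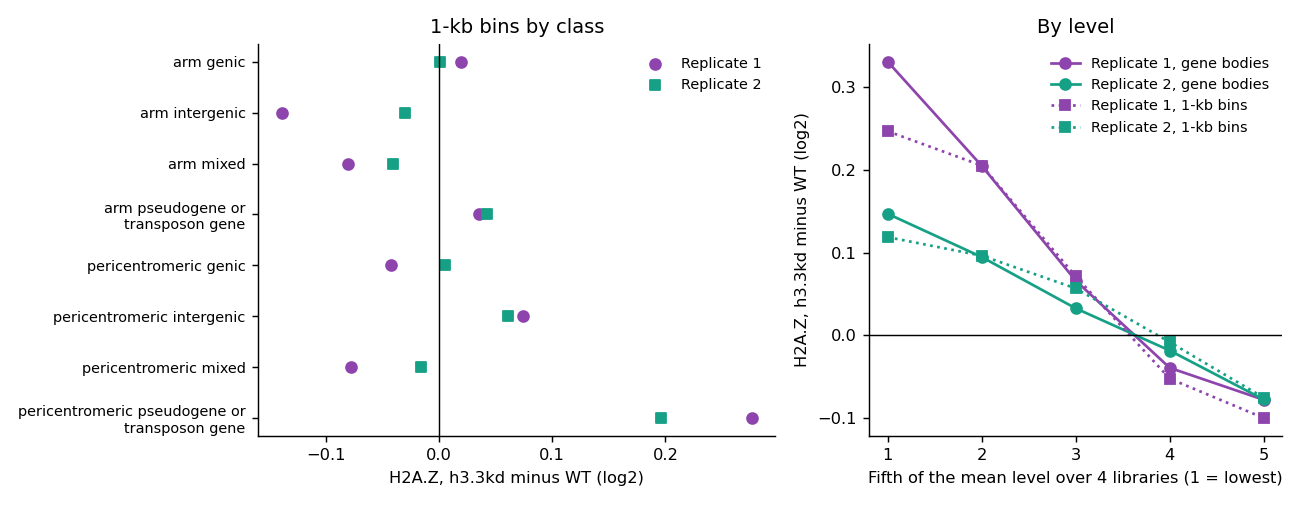
Left, difference in H2A.Z (log2, *h3.3kd* minus WT) by class of 1-kb bin. Right, the same difference in 5 classes of the mean level over the 4 H2A.Z libraries, for gene bodies (circles, solid lines) and 1-kb bins (squares, dotted lines), each for replicate 1 (purple) and replicate 2 (green). Pericentromeric bins with a pseudogene or transposon gene differed by 0.28 and 0.20, and the lowest class of gene bodies by 0.33 and 0.15.

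Gene by gene, no difference passed limma with Benjamini-Hochberg adjustment. In simulated data the fit recovered 4% of log2 changes of 0.5 in first nucleosomes, 47% in bodies and 11% in bins. A lack of calls therefore does not show that changes of that size are absent. Over the first nucleosome 22860 genes were tested, and 0 had an adjusted p under 0.05 (0%), also by limma-voom. Below an unadjusted p of 0.05, *h3.3kd* was higher in 58 genes (0.254%) and lower in 452 (1.98%), 2.23% in all. Centred on the median of each library these were 102 higher and 166 lower, and with correction for duplicate removal 32 and 106. Over the gene body 0 of 22943 genes passed by either tool, and 1478 (6.44%) stood higher and 142 (0.619%) lower without adjustment, 7.06% in all. These became 769 higher and 359 lower when centred, and 1142 and 217 when corrected. For the balance, 0 of 22849 genes passed, with 75 (0.328%) higher and 1149 (5.03%) lower without adjustment, 5.36% in all, or 27 and 292 when corrected. Of 117162 bins of 1 kb, 0 passed by either tool, with 7457 (6.36%) higher and 1352 (1.15%) lower without adjustment, 7.52% in all. The bins became 5502 higher and 2769 lower when centred, and 4586 and 1781 when corrected. Among the 9337 pericentromeric bins with a pseudogene or transposon gene, 1083 were higher and 59 lower without adjustment, but 516 and 88 with each library centred on its median and 159 and 63 with correction for duplicate removal. With the processing of the lists, which here is the replicate number, as a term in the fit, 3999 gene bodies passed (3501 higher and 498 lower in *h3.3kd*) and 12260 bins passed. Without WT replicate 2, 5028 gene bodies and 10751 bins passed, so the calls depended on the term and on that library.

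The direction shared by both replicates was skewed in the way of the averages. Over the first nucleosome, 43.7% of tested genes were lower in *h3.3kd* in both replicates and 15.8% higher in both, and the genotypes did not overlap in 22.5% (lower) and 6.67% (higher). Over the body, 47.4% were higher in both and 29.1% lower in both, without overlap in 30.5% and 13.8%. The balance was lower in both in 51.8% and higher in both in 14.1%, without overlap in 30.9% and 6.29%. Of the bins, 38.6% were higher in both and 32.9% lower in both, without overlap in 24.5% and 17.3%.

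The genes named next had the largest differences below an unadjusted p of 0.05, and none passed adjustment (limma, adjusted p 0.595 for bodies and 0.815 for balances). With that term for the replicate number, called the replicate block, all 12 of them passed, for example *RLP50* (adjusted p 2.3e-19), AT5G44770 (9.27e-09) and *HTR5* (2.52e-06). The 12 were picked by their differences in these same libraries, so their passing is no separate support. *HTR5* itself (AT4G40040, chr4:18557149-18558945, 5 exons) came first. Its first nucleosome had a density of 9.34 and 11.04 in *h3.3kd* against 1.90 and 6.75 in WT, a log2 difference of 1.38 ± 0.44 (SE). The value of 1.90 came from 9 reads. H3 in this window was 8.52 and 5.74 in *h3.3kd* against 2.95 and 9.72 in WT, so its replicates went opposite ways. Density upstream of the gene, given above, was also higher in *h3.3kd* in both H2A.Z and H3. AT2G22440, annotated as a non-LTR retroelement reverse transcriptase, had 7.05 and 7.99 in *h3.3kd* against 2.11 (from 10 reads) and 5.79 in WT. The largest differences downward were AT5G44770, a cysteine/histidine-rich C1 domain gene with 6.59 and 9.63 in *h3.3kd* against 16.5 and 18.7 in WT, and AT5G28690, a pericentromeric gene annotated as carboxylate clamp-TPR protein, with 5.51 and 6.05 in *h3.3kd* against 15.6 and 9.32 in WT. AT5G44770 differed by −1.10 ± 0.22 (SE), and its body was also lower, at 12.96 and 12.47 in *h3.3kd* against 17.8 and 17.0 in WT.

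Over the gene body, the largest differences upward were in *RLP50* (AT4G13920), which encodes a receptor-like protein, and *CAF1a* (AT3G44260), which encodes a subunit of the deadenylase that shortens mRNA tails. *RLP50* had 14.0 and 10.9 in *h3.3kd* against 5.68 and 6.63 in WT, a log2 difference of 1.00 ± 0.16 (SE). *CAF1a* had 17.2 and 10.8 in *h3.3kd* against 5.22 and 10.4 in WT. In replicate 2 the genotypes were close, and the difference lay in replicate 1, yet the gene passed with the replicate block (limma, adjusted p = 8.58e-09). Downward, AT3G60940, annotated as a putative endonuclease or glycosyl hydrolase, had 3.10 and 5.81 in *h3.3kd* against 6.25 and 8.16 in WT, but was higher by 0.55 (log2) relative to H3, and AT1G33820, an uncharacterized gene, had 5.36 and 5.74 in *h3.3kd* against 9.95 and 7.78 in WT.

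For the balance, AT4G20390, of a protein family without known function, had −1.02 and −0.87 in *h3.3kd* against −2.57 and −1.36 in WT. *MBF1C* (AT3G24500), a transcriptional coactivator of the heat response, had 0.074 and −0.96 in *h3.3kd* against −1.39 and −1.44 in WT. In WT replicate 1 the first nucleosome held only 10 reads in AT4G20390 and 15 in *MBF1C*. Downward, *SCL21* (AT2G04890), a GRAS-family transcription factor, had 0.19 and 0.059 in *h3.3kd* against 1.55 and 0.73 in WT. AT4G26630, which encodes a DEK domain chromatin protein, had 0.23 and 0.20 in *h3.3kd* against 1.70 and 0.72 in WT. In *SCL21* and AT4G26630 the body was denser in *h3.3kd*, with 9.003 and 9.74 against 5.41 and 6.61 in WT for *SCL21* and 6.05 and 6.26 against 3.80 and 5.39 in WT for AT4G26630.

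Of 8 heat shock genes, 6 are at least 1 kb long, and none passed adjustment over any window. Over the first nucleosome 5 of 6 were lower in *h3.3kd* in both replicates and 0 higher in both, with a median log2 difference of −0.17 beside −0.072 over all genes tested, of which 43.7% were lower in both. The median was −0.34 in replicate 1 and −0.12 in replicate 2, beside −0.085 and −0.063 over all genes. *HSP90.1*, a cytosolic chaperone, had 16.2 and 21.9 in *h3.3kd* against 24.5 and 25.5 in WT. *HSFA2*, a heat-induced transcription factor, had 12.87 and 17.57 in *h3.3kd* against 19.6 and 18.9 in WT. *HSP70* had 15.9 and 14.5 in *h3.3kd* against 18.8 and 15.99 in WT. *HSP23.6*, a small heat shock protein gene, had 20.2 and 21.1 in *h3.3kd* against 22.6 and 23.5 in WT. In these 4 genes the genotypes did not overlap, *HSP70* by the smallest margin, as in 22.5% of all genes in that direction. Only *HSP90.1* of the 4 passed over the first nucleosome with the replicate block (limma, adjusted p = 0.032). Over the body, 1 heat shock gene was higher in both replicates and 2 lower in both, beside 47.4% and 29.1% of all genes.

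Of 7 cold and drought genes, 3 were lower over the first nucleosome in both replicates and 0 higher in both. The shares over all genes were 43.7% lower and 15.8% higher. *RD29B*, a dehydration-induced gene, had 17.9 and 17.4 in *h3.3kd* against 20.3 and 20.5 in WT. Over the body, 3 were lower in both replicates and 0 higher in both, with a median difference of −0.099 beside 0.056 over all genes. Among all genes, 29.1% were lower in both and 47.4% higher in both. Of the 6 *FLC* clade genes, which encode MADS-domain repressors of flowering, 3 had a denser body in *h3.3kd* in both replicates and 3 a less dense one. The shares over all genes were 47.4% denser and 29.1% less dense. *FLM* had 5.30 and 6.37 in *h3.3kd* against 4.03 and 4.38 in WT, and *MAF3* had 5.34 and 5.29 against 4.11 and 4.70 in WT. *FLM* and *MAF3* passed with the replicate block (limma, adjusted p = 0.00014 and 0.048). *MAF5* was lower, at 9.69 and 10.8 in *h3.3kd* against 12.3 and 11.6 in WT. *FLC* itself had 24.0 and 20.6 over its first nucleosome in *h3.3kd* against 26.6 and 21.3 in WT, and the genotypes overlapped.

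Of 8 constitutive genes, 6 were higher over the body in both replicates and 0 lower in both, with a median of 0.28 beside 0.056 over all genes, of which 47.4% were higher in both. None passed adjustment, and 4 of 8 passed with the replicate block, beside 3999 of 22943 over all genes. *UBQ10* was among the 4 (limma, adjusted p = 1.3e-12), though its replicates went opposite ways. It had 13.8 and 22.9 over the body in *h3.3kd* against 4.20 and 26.1 in WT. Passing with the block therefore does not show that the replicates agree. The balance of the constitutive genes was lower in both replicates in 5 of 8 and higher in both in 0. Over all genes the shares were 51.8% and 14.1%. *PP2AA3*, a phosphatase scaffold subunit, had 6.53 and 7.58 over the body in *h3.3kd* against 4.80 and 6.61 in WT, and the genotypes overlapped. *EF1A*, a translation elongation factor, had 7.92 and 13.8 in *h3.3kd* against 4.14 and 11.4 in WT, where replicate 2 exceeded replicate 1 in both genotypes. Of 6 genes for H2A.Z and its deposition, 4 were higher over the body in both replicates and 0 lower in both, with a median of 0.20. Over all genes the shares were 47.4% and 29.1% and the median 0.056. *HTA9*, an H2A.Z gene, had 11.3 and 9.65 in *h3.3kd* against 7.81 and 9.13 in WT, and *PIE1*, the ATPase of SWR1, had 6.49 and 6.98 against 5.24 and 6.28 in WT. In both genes the *h3.3kd* values lay above the WT values, and no gene of the list passed adjustment. *PIE1* passed with the replicate block (limma, adjusted p = 0.042).

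Lists of genes with altered transcript level were taken from the RNA-seq of a single *h3.3kd* line in the study, without the H3.3 genes, and none of their fold changes was used. Of 572 tested genes with less transcript in *h3.3kd*, 169 (29.5%) had a denser body in both replicates and 212 (37.1%) a less dense one, with a median of 0.0096. Of 232 genes with more transcript in *h3.3kd*, 40 (17.2%) had a denser body in both replicates and 119 (51.3%) a less dense one, with a median of −0.060. Both medians were below that of all genes (0.056), of which 47.4% were denser in both replicates and 29.1% less dense. Over the first nucleosome, the median was −0.025 for genes with less transcript and −0.092 for genes with more transcript, beside −0.072 over all genes. Neither list contained a gene that passed adjustment over any window. With the replicate block, 100 of 572 bodies of genes with less transcript and 21 of 232 of genes with more transcript passed. Over all genes 3999 of 22943 bodies passed, so neither list stood above that share.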

How the data were processed

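ChIP-seq reads were mapped to TAIR10 with Bowtie by the authors, who kept uniquely mapping reads with few mismatches, took out duplicate reads of equal coordinates and deposited read positions, with no normalized value. No strand or organelle reads were listed for replicate 2 of H2A.Z. H2A.Z libraries held 19.0 to 68.1 M (1000000) nuclear reads. Each read was placed by its middle (leftmost base plus 25 bp) on TAIR10.1, and libraries were scaled to nuclear reads. Windows averaging 10 reads or more were compared by limma 3.58.1 (trend) in R 4.3.3 on log2(reads per 1000000 + 0.1), a scale that understates differences of low windows, with Benjamini-Hochberg adjustment, and regions by two-sided exact permutation tests. Bins with a mean under 10 H3 reads were left out of regional values. The loss of reads to duplicate removal was estimated in 50-bp tiles, an alternative added after seeing the data. Pericentromeres were the longest run of 100-kb tiles with a 1-Mb running gene share under 0.3. The methods name no spike-in for these libraries, and with scaling to nuclear reads a loss in all places alike would not be seen. The fits were tested on simulated data. Of log2 changes of 0.5, limma recovered 4% in first nucleosomes, 47% in bodies and 11% in bins. Of log2 changes of 1, it recovered 68%, 99% and 95%.

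Genes were named by rule: the 4 with the largest difference in each direction among those passing adjustment, with a mean of at least 50 reads and no overlap of the genotypes, or, with none passing, the 2 largest at an unadjusted p under 0.05. Members of 5 lists of known genes were added. The libraries and lists were chosen with earlier results of these data known.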

Additional observations from a re-analysis of the deposited data

How the results depend on the processing

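Of 169 alternative values for regions, trends and counts of calls, 141 met the rule for staying the same. The rule was the same direction for regions and a value within 1.5 times for counts. For trends it was the same direction and a shift smaller than the pooled SD of the replicates. Values could still differ much in size, as the ranges show. No balance over all genes turned its sign: it ranged from −0.14 to −0.071 with 1 library left out, and the first nucleosome from −0.11 to −0.059, the body from 0.012 to 0.027, the end from 0.024 to 0.098, arm intergenic bins from −0.16 to −0.014, pericentromeric bins from 0.018 to 0.19, the length trend from −0.28 to −0.094 and the exon trend from −0.20 to −0.12. Genes isolated by 500 bp gave −0.055 for the body and −0.038 for the end. The cause was not tested. Relative to H3, the balance of 0.021 became −0.021 with pooled H3, −0.14 with replicate 1 of H3 for both and −0.0054 as a median over genes, and ranged from −0.21 (without WT replicate 2) to 0.25 with 1 library left out. It was −0.019 without *h3.3kd* replicate 1. The gene body over H3 ranged from −0.12 to −0.013. Pericentromeric bins over H3 (−0.089) became 0.073 with pooled H3 and 0.27 with replicate 1 of H3, and ranged from −0.43 to 0.25 (without WT replicate 2). The length trend relative to H3 was −0.039 (−0.29 and 0.21 in the replicates) and the exon trend −0.11, and the exon trend was −0.083 corrected for duplicate removal. The length trend could not be given with the later-starting body window, since its shortest class has no genes there.

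With the replicate block in the limma fit, 187 first nucleosomes, 3999 bodies, 202 balances and 12260 bins were called, and with the replicate block and GC correction 4 first nucleosomes and 2593 bodies. The labels do not say that numbers pair samples. Deviations of same-numbered libraries correlated across genes (r = 0.57 for the first nucleosome, 0.66 for the body). With 1 library left out, calls ranged from 0 to 8 for the first nucleosome, 0 to 5028 for bodies and 9 to 10751 for bins, and stayed at 0 for the balance. The fit then assumes that a lone sample varies like the other genotype. Without a minimum of reads, 1 bin was called. Of 25 genes named, 18 passed with the replicate block, including all those named by rule from these same values. Of 359 alternative values for single genes, 6 turned sign: AT3G60940 (0.55) and *RD29B* (0.14) relative to H3, *FLC* corrected for duplicate removal (0.11), and 3 with 1 library left out. Leaving out single libraries, *EF1A* ranged from −0.12 (WT replicate 1 out) to 1.33 and *FLC* from −0.25 to 0.061, with 0.015 when *h3.3kd* replicate 2 was out.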

Other observations

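The balance of first nucleosome to gene body, *h3.3kd* minus WT, was negative in both replicates for H2A.Z alone among the 5 antibodies of the series (−0.14 and −0.073). For H3K4me3 it was 0.045 and 0.078. For H3 it was 0.031 and −0.28, for H1 0.032 and −0.25, and for H3K36me3 0.17 and −0.21, so that replicates of these 3 went opposite ways. As a mean of both replicates, H3 (−0.13) and H1 (−0.11) were as low as H2A.Z (−0.10), beside −0.020 for H3K36me3 and 0.061 for H3K4me3. Downstream of genes, in the 500 bp after the TES, H2A.Z differed by 0.045 and 0.026.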
